A study of Mus musculus with 34 samples.

Results

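The delta protocadherins are cadherin-type adhesion proteins that are each encoded by a single gene of its own, unlike the alpha, beta and gamma protocadherins, whose genes lie in clusters. The 9 genes described here were chosen by name: Pcdh1, Pcdh7 and Pcdh9, which belong to the delta-1 subgroup, Pcdh8, Pcdh10, Pcdh17, Pcdh18 and Pcdh19, which belong to the delta-2 subgroup, and Pcdh20, a further single-gene protocadherin. Each has 1 entry in the table of expected counts, which holds 29876 gene entries without spike-ins. No measured value served as a rule to choose them, but they were chosen with earlier results of these data known. The series title names Pcdh genes, so the family was of interest to the submitters in these same samples.

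RNA was sequenced from 28 libraries of cultured mouse cells in 9 groups, 3 genotypes at each of 3 stages. Control cells have the genotype label 129Sv +/+. Deletion cells (129Sv df/+) have lost 1 copy of 7qF3, the region of chromosome 7 that matches human 16p11.2, and duplication-deletion cells (129Sv df/dp) carry a duplicated and a deleted chromosome; the strain label of every sample reads C57BL/6N. The stages are embryonic stem cells (ESCs; 3 control, 3 deletion and 3 duplication-deletion libraries), neural progenitor cells (NPCs) at day 5 of differentiation through an epiblast stem cell stage (5, 3 and 3) and immature dopaminergic neurons at day 16 (4, 2 and 2). A description label of the duplication-deletion NPCs names the deletion only, while title and genotype name both. The labels say neither how many lines were used per genotype nor whether replicates were separate cultures, so a p-value here weighs a difference against the spread of these libraries, which may be technical.

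Depth ran from 5578151 to 78814037 counts per library, and replicate 3 of ESCs and replicate 5 of NPCs were the shallow ones, with 5578151 to 24053970. As a check of the labels, the median gene of the 7qF3 interval stood at 38.7% to 73.5% of the control mean in the 8 deletion libraries, at 74.1% to 123% in the 12 control libraries and at 74.3% to 125% in the 8 duplication-deletion libraries. Markers of pluripotent cells summed to 816 to 1147 CPM (counts scaled to library size by the TMM method) in ESCs and to at most 5.24 CPM later, and markers of dopaminergic neurons to 149.5 to 931 CPM in neurons against 6.10 to 133 CPM before. Neuron libraries also held marker RNA of neural progenitors (620 to 1004 CPM, against 1558 to 2759 CPM in NPCs) and mesenchyme (446 to 1344 CPM). Sums were 169 to 518 CPM for floor plate, 91.7 to 265 CPM for astrocytes and 52.2 to 176 CPM for glutamatergic neurons. They were 25.8 to 278 CPM for GABAergic neurons, 4.26 to 138 CPM for serotonergic neurons and 16.6 to 174 CPM for the oligodendrocyte lineage. Whether these are separate cells was not tested. In bulk RNA, fewer cells of a type and less RNA per cell cannot be told apart.

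Delta protocadherins span the membrane once and bind copies of themselves on a neighbouring cell through their extracellular cadherin repeats. In the developing brain they are known from cell sorting, axon growth and synapse formation, and several have been linked to epilepsy or autism. Inside the cell, delta-1 members carry a conserved motif that binds protein phosphatase 1, several delta-2 members recruit the WAVE complex, which starts branched actin networks, and Pcdh8 binds N-cadherin and the kinase Taok2, whose gene lies in 7qF3 itself.

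The comparisons of control cells ask which of these genes change with differentiation itself. Of the 9 genes, 8 were higher in NPCs than in ESCs by edgeR's quasi-likelihood test at an adjusted p of 0.05, where 21.0% of all 18365 genes tested were higher. From NPC to neuron 6 were higher and 1 lower, against 23.2% of genes higher and 20.5% lower. In neurons all 9 were above ESCs, against 29.8% of genes. The median log2 fold change of the 9 genes was 6.55 from ESC to NPC, 1.83 from NPC to neuron and 7.50 from ESC to neuron, where the medians of all genes were 0.01, 0.10 and 0.13. Pcdh8, Pcdh9, Pcdh10, Pcdh17 and Pcdh20 did not pass the filter on low counts among ESC libraries alone. They entered the control tests through the later stages, where they were high, and so could hardly be called lower there than in ESCs. Counts and medians over ESCs therefore describe these genes and are no test of an excess over all genes. Adjusted p-values against ESCs given below for Pcdh8, Pcdh9, Pcdh10 and Pcdh17 have the same limit and are descriptive too. CPM is not corrected for transcript length, so levels are compared between libraries of a gene and not between genes.

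**Figure D1:**
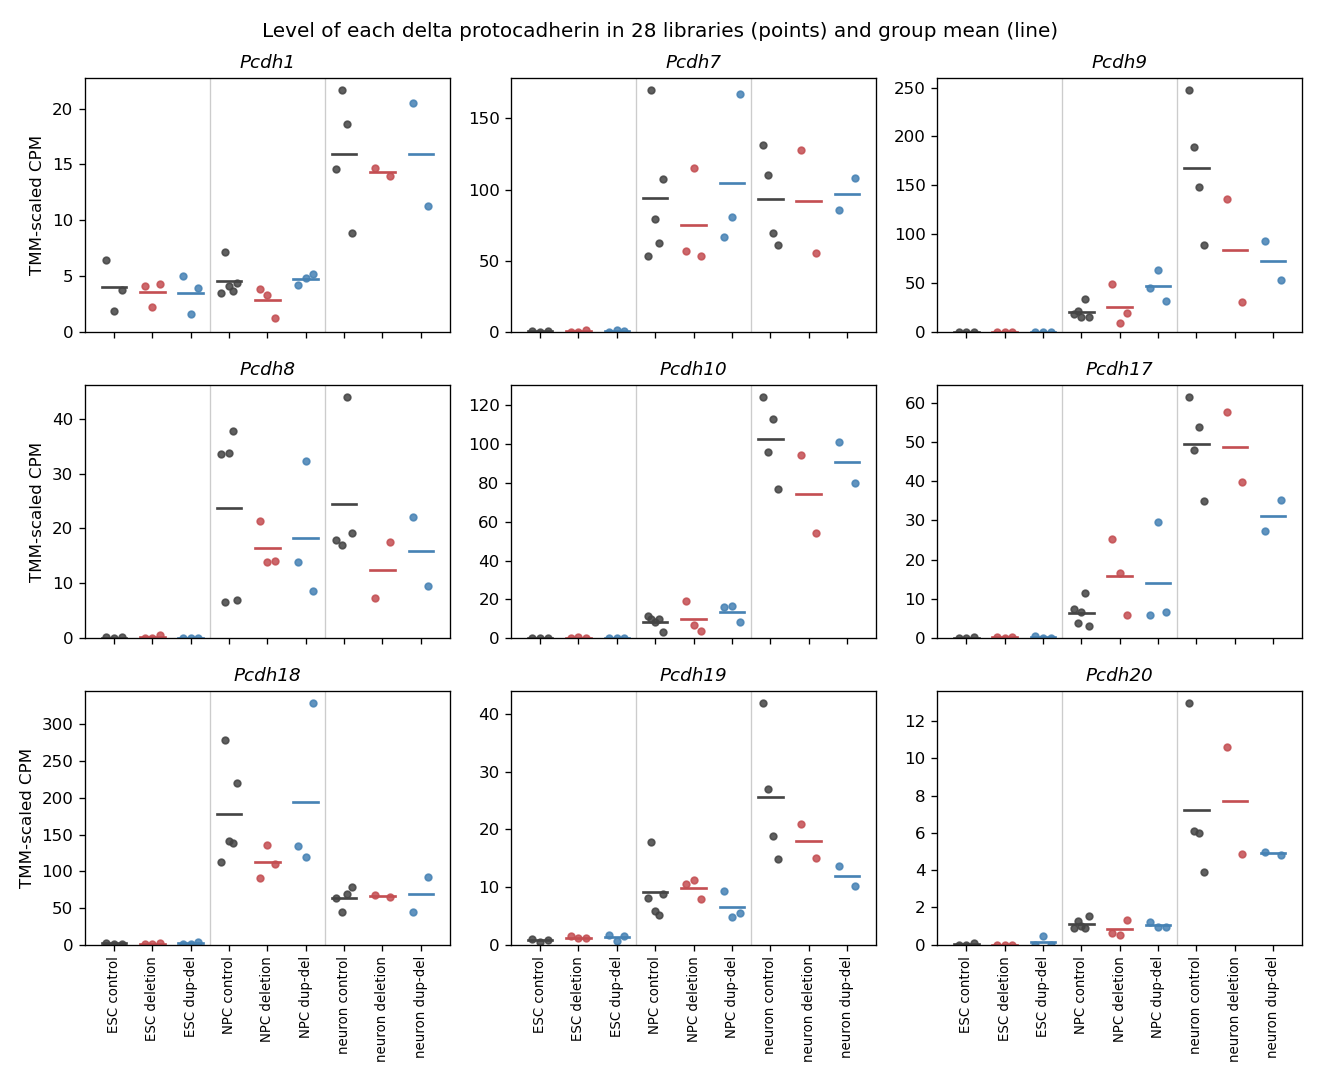
Level of each gene in TMM-scaled CPM (vertical axis, starting at 0) in every library (points) of the 9 groups, with the group mean as a line. Pcdh1, Pcdh9, Pcdh10, Pcdh17, Pcdh19 and Pcdh20 are highest in neurons. Pcdh18 is highest in NPCs, and Pcdh7 and Pcdh8 stand at like levels in NPCs and neurons.

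Among the delta-1 genes, Pcdh7, known as NF-protocadherin from frog neural tissue, rose from ESC to NPC and overlapped between NPCs and neurons. Pcdh7 had 0.671, 0.291 and 0.825 CPM in the 3 control ESC libraries, 53.2, 169.5, 79.0, 62.6 and 108 CPM in the 5 control NPC libraries and 131, 110.0, 69.6 and 61.4 CPM in the 4 control neuron libraries. No NPC or neuron library overlapped an ESC library, while the NPC and neuron ranges overlapped over most of their width. NPCs were above ESCs by a log2 fold change of 7.31 ± 0.58 (SE; 159-fold; edgeR adjusted p = 6.97e-07). Between NPC and neuron the log2 fold change was 0.01 ± 0.35 (adjusted p = 0.993), and leaving out any of 5 single libraries turned its sign, to -0.14 at the lowest.

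Pcdh9, the delta-1 gene with the longest span on its chromosome, rose at both steps. Its control levels were 0.103, 0.379 and 0.174 CPM in ESCs, 18.1, 21.4, 15.7, 34.0 and 15.7 CPM in NPCs, and 247, 189.5, 148 and 88.6 CPM in neurons. The 3 stages did not overlap. Pcdh9 rose by a log2 fold change of 6.55 ± 0.54 from ESC to NPC (93.7-fold; adjusted p = 9.97e-07; 7.26 without ESC replicate 2) and by 3.03 ± 0.34 from NPC to neuron (8.19-fold; adjusted p = 1.05e-05), both by edgeR.

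Pcdh1, best known from airway epithelium, was alone among the 9 genes in not passing the threshold from ESC to NPC. It had 6.48, 1.89 and 3.73 CPM in control ESCs and 3.51, 7.16, 4.11, 3.70 and 4.36 CPM in control NPCs, which overlap. Control neurons had 14.6, 21.7, 18.6 and 8.85 CPM, all above every ESC and NPC control library. Its log2 fold change was 0.16 ± 0.42 from ESC to NPC (edgeR adjusted p = 0.789) and 1.83 ± 0.38 from NPC to neuron (3.57-fold; adjusted p = 0.00153). Without ESC replicate 2 or NPC replicate 2 the first of these was -0.20 or -0.06.

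Among the delta-2 genes, Pcdh10, also called OL-protocadherin and linked to autism in families with homozygous deletions nearby, had the widest range. Control ESC libraries held 3, 0 and 1 counts of it, or 0.0775, 0 and 0.0434 CPM. Control NPCs had 11.7, 9.78, 8.50, 9.79 and 3.47 CPM, and control neurons 124, 95.9, 113 and 76.8 CPM, again with no overlap between stages. The log2 fold change was 7.61 ± 0.61 from ESC to NPC (edgeR adjusted p = 8.24e-07) and 3.60 ± 0.34 from NPC to neuron (12.1-fold; adjusted p = 2.21e-06). With so few ESC counts the first value rests on single libraries: it was 8.74 without ESC replicate 1 and 6.99 without replicate 2.

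Pcdh17, a presynaptic adhesion protein of basal ganglia circuits, had 0.207, 0 and 0.217 CPM in control ESCs. It had 7.34, 4.02, 6.73, 11.5 and 3.09 CPM in control NPCs and 61.5, 48.1, 53.7 and 35.0 CPM in control neurons. All NPC libraries lay above all ESC libraries and below all neuron libraries. Pcdh17 rose by a log2 fold change of 5.54 ± 0.68 from ESC to NPC (edgeR adjusted p = 2.64e-05; 4.91 without ESC replicate 2) and of 2.95 ± 0.44 from NPC to neuron (7.74-fold; adjusted p = 1.18e-04).

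Pcdh19, whose human counterpart is mutated in an epilepsy that affects mostly females, had low but steady counts in ESCs (1.01, 0.495 and 0.825 CPM in control libraries). Control NPCs had 8.09, 17.8, 5.87, 5.06 and 8.76 CPM and control neurons 42.0, 27.0, 18.9 and 14.8 CPM. ESCs lay apart from both other stages, and NPC replicate 2 reached into the neuron range. Pcdh19 rose by a log2 fold change of 3.53 ± 0.53 from ESC to NPC (11.6-fold; edgeR adjusted p = 1.30e-04) and by 1.53 ± 0.40 from NPC to neuron (2.88-fold; adjusted p = 0.00662).

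Pcdh18, which binds the reelin adaptor Dab1, was alone among the 9 genes in falling from NPC to neuron. It had 2.58, 0.437 and 1.43 CPM in control ESCs and 113, 279, 141, 138 and 220.0 CPM in control NPCs. Control neurons had 63.3, 44.9, 68.3 and 78.1 CPM, below every control NPC library and above every ESC library. The log2 fold change was 6.88 ± 0.59 from ESC to NPC (118-fold; edgeR adjusted p = 1.30e-06; 7.61 without ESC replicate 1) and -1.46 ± 0.39 from NPC to neuron (2.74-fold lower; adjusted p = 0.00756). Mesenchyme markers summed to 446 to 1344 CPM in control neurons and 118 to 413 CPM in control NPCs. Among control neurons, replicate 4 had most of them (1344 CPM) and most Pcdh18 RNA, while replicate 3 had the fewest (446 CPM) and the second highest Pcdh18 level. Their part in the Pcdh18 values was not tested.

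Pcdh8, known as arcadlin for its induction by neuronal activity and as paraxial protocadherin in early mesoderm, rose from ESC to NPC and was spread widely within both later stages. Its control levels were 0.232, 0 and 0.174 CPM in ESCs, 33.5, 6.67, 33.8, 37.8 and 6.98 CPM in NPCs, and 17.9, 17.0, 44.0 and 19.1 CPM in neurons. NPC replicates 2 and 5 stood apart from the other 3, and neuron replicate 3 stood above the rest. The log2 fold change was 7.42 ± 0.98 from ESC to NPC (edgeR adjusted p = 4.64e-05; 8.28 without ESC replicate 1 and 6.80 without replicate 2). From NPC to neuron it was 0.08 ± 0.57 (adjusted p = 0.935), and -0.38 without neuron replicate 3.

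Pcdh20, studied in olfactory sensory neurons, had 2 counts in the 3 control ESC libraries together, both of them in the shallow replicate 3. Control NPCs had 0.865, 1.27, 1.01, 0.866 and 1.54 CPM and control neurons 13.0, 6.10, 5.98 and 3.89 CPM, without overlap. From NPC to neuron it rose by a log2 fold change of 2.74 ± 0.56 (6.66-fold; edgeR adjusted p = 0.00140). Over ESCs the ratio of its levels, from summed counts, was 50.1 in NPCs (95% binomial interval 13.8 to 416) and 324 in neurons (89.6 to 2679); these intervals cover counting error only. Deletion ESCs had 0 counts of it, and against a floor of 3 counts over the group the level was at least 14.8-fold higher in deletion NPCs and at least 153-fold higher in deletion neurons.

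**Figure D2:**
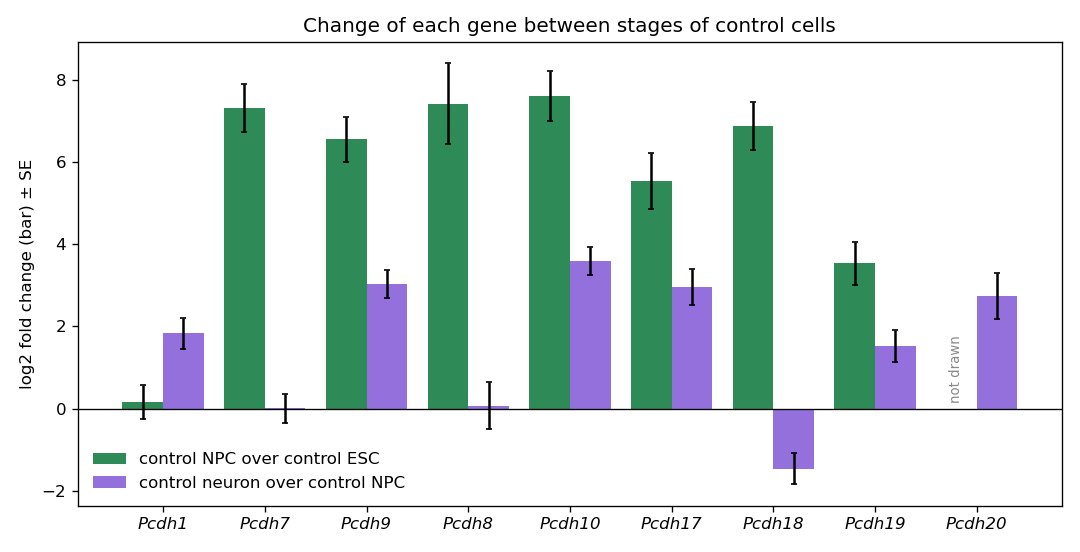
Log2 fold change of each gene (bars, with SE) in control NPCs over control ESCs and in control neurons over control NPCs. The first bar is near 0 for Pcdh1 only and is not drawn for Pcdh20, which had 2 counts in control ESCs; the second is below 0 for Pcdh18.

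Promoter sequences of 8 of the 9 genes were found in RefSeq (build GRCm38.p6), from 250 bases before to 50 bases after the annotated start. They are shown because these genes moved together from ESC to NPC. The letters CCAAT, or ATTGG on the other strand, stood in 7 of the 8 windows, and in 37.4% of all 32851 promoters of this length. The stretches around 1 match per gene follow, each of 25 bases, 5′ to 3′ along the gene, with the match in capitals.
Pcdh9, chr14:93890747-93890771, minus strand: aagatgctggCCAATcaggacccgg
Pcdh8, chr14:79771366-79771390, minus strand: ctaagcgaccATTGGctggcccctt
Pcdh10, chr3:45378338-45378362, plus strand: ctcctcggcgATTGGttggcagaat
Pcdh17, chr14:84443495-84443519, plus strand: ccccacgccgATTGGctggcagaga
Pcdh18, chr3:49757334-49757358, minus strand: aagctcgctgATTGGctggaagcga
Pcdh19, chrX:133689044-133689068, minus strand: ctgcgcgctgATTGGctagtgcctg
Pcdh20, chr14:88471567-88471591, minus strand: tttgccatcaCCAATagcgaaaatt
The first base of the match lay 82 bases before the start in Pcdh9, 68 in Pcdh8, 50 in Pcdh10, 58 in Pcdh17, 32 in Pcdh18 and 65 in Pcdh19, and 185 bases before it in Pcdh20. All 5 delta-2 genes hold it on the strand opposite to the gene. The window of Pcdh7 held no match. The motifs were picked after these sequences had been seen, and a match is a run of letters and not a measured binding site.

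Whole windows are given for 3 genes that differ in their stage pattern: Pcdh8, flat from NPC to neuron, Pcdh10, with the largest rise over ESCs, and Pcdh20, with the fewest ESC counts. Capitals mark matches, on either strand, to CCAAT, the GC box GGGCGG, the TATA box TATAAA and the octamer ATTTGCAT.
Pcdh8, chr14:79771263-79771562, minus strand: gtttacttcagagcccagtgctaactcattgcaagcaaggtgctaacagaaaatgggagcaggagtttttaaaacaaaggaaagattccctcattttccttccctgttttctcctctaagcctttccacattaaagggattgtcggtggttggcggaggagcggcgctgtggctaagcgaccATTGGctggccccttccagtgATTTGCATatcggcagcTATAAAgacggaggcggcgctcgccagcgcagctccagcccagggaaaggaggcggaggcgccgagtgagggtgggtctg
Pcdh10, chr3:45378148-45378447, plus strand: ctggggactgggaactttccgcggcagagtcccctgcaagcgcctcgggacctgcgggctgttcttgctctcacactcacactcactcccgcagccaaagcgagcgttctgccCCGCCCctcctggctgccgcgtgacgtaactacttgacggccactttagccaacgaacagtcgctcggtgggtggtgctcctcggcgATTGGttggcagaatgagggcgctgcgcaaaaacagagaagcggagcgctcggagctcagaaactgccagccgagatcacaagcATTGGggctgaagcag
Pcdh20, chr14:88471347-88471646, minus strand: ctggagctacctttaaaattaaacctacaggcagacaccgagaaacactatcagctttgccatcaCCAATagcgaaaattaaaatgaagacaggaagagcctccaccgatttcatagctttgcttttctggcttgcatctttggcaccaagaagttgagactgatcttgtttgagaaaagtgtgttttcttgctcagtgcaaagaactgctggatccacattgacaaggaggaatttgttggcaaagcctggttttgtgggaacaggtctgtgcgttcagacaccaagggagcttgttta
In Pcdh8 the octamer began 47 bases and the TATA box 30 bases before the start; 1.74% and 13.6% of all promoters hold these letters, and no other window of the 8 did. GGGCGG or its reverse stood in the windows of Pcdh10, Pcdh17, Pcdh18 and Pcdh19, 4 of 8, and in 35.7% of all promoters. CpG dinucleotides numbered 26 in Pcdh17, 24 in Pcdh10, 23 in Pcdh18, 18 in Pcdh9, 18 in Pcdh19, 14 in Pcdh8 and 11 in Pcdh7, all above the median of 7 over all promoters, and 4 in Pcdh20, below it.

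In the coordinates of the authors' deposited table, which are on mm9, 4 of the 9 genes lie on chromosome 14: Pcdh8 at chr14:80166582-80171119, Pcdh17 at chr14:84843370-84936867, Pcdh20 at chr14:88864554-88871203 and Pcdh9 at chr14:93412920-94289888. Pcdh10 lies at chr3:45182320-45238501 and Pcdh18 on the same chromosome at chr3:49547218-49561238, Pcdh7 at chr5:58109260-58523479 and Pcdh19 at chrX:130117400-130223532. Pcdh1, at chr18:38349199-38369416, begins 348 kb past the last listed gene of the protocadherin clusters. None lies on chromosome 7, which carries the deleted region. Of neighbours in position, Pcdh10 rose from NPC to neuron where Pcdh18 fell, and Pcdh9, Pcdh17 and Pcdh20 rose where Pcdh8 did not pass the test. The entries of Pcdh7, Pcdh17 and Pcdh19 overlap another entry in their span (AK034221, 9630013A20Rik and Mageb16). Whether counting used the strand is not given in the sources used here, and whether these pairs share reads was not tested. Pcdh7 alone among the 9 also had expected counts that were not whole, in 19 of 28 libraries.

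The mutant cells ask whether loss of 7qF3, or its presence as 2 copies on 1 chromosome, changes these genes. No member passed edgeR's threshold in any of the 9 comparisons between genotypes of a stage, and none by DESeq2. The share of all genes called was 0% in the 3 ESC comparisons. In NPCs it was 0.00596% for deletion against control, 0.0119% for duplication-deletion against control and 0.0238% between the mutants. In neurons it was 0% for deletion, 0.0390% for duplication-deletion and 0.0335% between the mutants, so a count of 0 members is near the background. DESeq2 called 4 to 246 genes in these comparisons. Of the 7qF3 interval genes, edgeR called none in deletion cells against control, with 22 tested in ESCs, 23 in NPCs and 23 in neurons. Their median log2 fold changes were -1.21, -0.70 and -0.92, so a gene that was not called may still have changed. At an unadjusted edgeR p under 0.05 stood 1 member in duplication-deletion NPCs (Pcdh9), where 2.66% of all genes did, and 1 in duplication-deletion neurons (Pcdh19), where 7.22% did. In the other 7 comparisons no member did, against 1.26%, 0.310% and 0.996% of genes in ESCs (deletion, duplication-deletion and between the mutants), 3.56% and 4.01% in NPCs and 3.63% and 8.85% in neurons (deletion and between the mutants). These counts are near the background too.

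**Figure D3:**
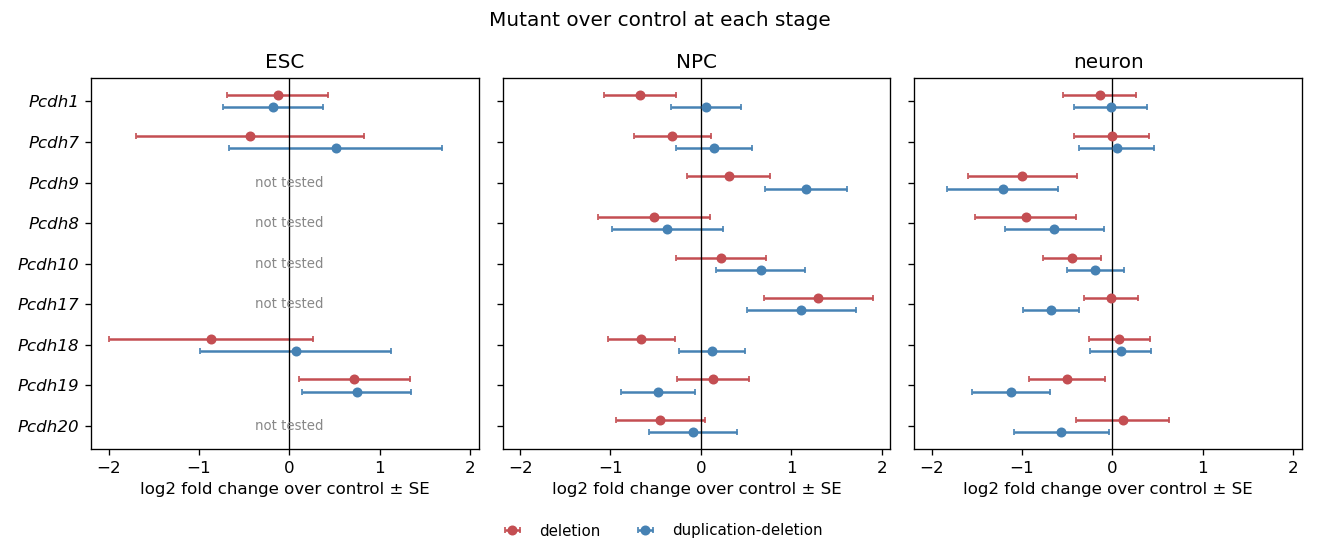
Log2 fold change over control (horizontal axis, points with SE) for deletion and duplication-deletion cells at each stage, with no value for the 5 genes left out by the filter on low counts in ESCs. The NPC values of Pcdh9 and Pcdh17 lie right of 0 and the neuron values of Pcdh9 and Pcdh19 left of 0, none past the threshold.

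In ESCs, Pcdh1, Pcdh7, Pcdh18 and Pcdh19 had enough counts to be tested. Their log2 fold changes ran from -0.87 to 0.72 in deletion and from -0.18 to 0.74 in duplication-deletion cells; with the replicate block they ran from -1.41 to 0.78 and from -0.24 to 0.72, and the duplication-deletion value of Pcdh18 turned from 0.07 to -0.24. Pcdh19 had 1.45, 1.08 and 1.12 CPM in the deletion libraries, all above the control range of 0.495 to 1.01 CPM, and 1.63, 0.706 and 1.53 CPM in duplication-deletion libraries, which overlap it. Within libraries of the same replicate number, the mutant was above control in 3 of 3 pairs for Pcdh17 in deletion and Pcdh10 in duplication-deletion cells. The share of all genes at 3 of 3 was not computed. Pcdh19 was above control in 3 of 3 pairs for each mutant. With the replicate number as a block its log2 fold change was 0.78 in deletion (edgeR unadjusted p = 0.243, adjusted p = 0.705) and 0.72 in duplication-deletion cells (edgeR unadjusted p = 0.268, adjusted p = 0.993). The other 5 genes had at most 32 counts in any ESC library, so differences between genotypes were not detectable at this depth. Stray counts sat in single libraries: 16 of the 16 Pcdh10 counts of deletion ESCs and 17 of the 17 Pcdh20 counts of duplication-deletion ESCs came from replicate 2 of the group.

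In NPCs, Pcdh9 stood higher in duplication-deletion cells, with 44.7, 63.6 and 32.2 CPM against 15.7 to 34.0 CPM in controls. Of the mutant libraries, 2 lay above all controls and the lowest, the shallow replicate 5, fell just inside the control range. Their log2 fold change over control was 1.16 ± 0.45 (edgeR unadjusted p = 0.0243, adjusted p = 1). Deletion libraries had 49.4, 8.89 and 19.0 CPM, above, below and within the control range. Pan-neuronal markers summed to 430 to 552 CPM in duplication-deletion NPCs and 208 to 423 CPM in control NPCs; their part in the Pcdh9 values was not tested.

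Pcdh17 had 25.2, 16.6 and 5.89 CPM in deletion NPCs, where 2 of 3 libraries lay above the highest control library at 11.5 CPM. That gave a log2 fold change of 1.30 ± 0.60 (edgeR unadjusted p = 0.0513, adjusted p = 1). Duplication-deletion NPCs had 5.91, 29.6 and 6.66 CPM, so that their log2 fold change of 1.11 ± 0.60 rests on replicate 4 and was -0.06 without it. The 4 NPC libraries with most Pcdh17 RNA, namely duplication-deletion 4, deletion 1, deletion 3 and control 4, were also the 4 with the highest sums of dopaminergic markers (133, 116, 72.0 and 84.7 CPM against at most 22.9 CPM in the rest) and of floor plate markers (334 to 637 CPM against at most 213.5 CPM). Forebrain markers summed to 14.3 to 61.7 CPM in deletion NPCs and to 3.20 to 8.20 CPM in controls. The part of these cell types in the Pcdh17 values was not tested.

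Pcdh18 had 90.8, 136 and 110 CPM in deletion NPCs against 113 to 279 CPM in controls, which overlap (log2 fold change -0.66 ± 0.37). Pcdh1 had 3.90, 3.28 and 1.30 CPM in deletion NPCs against 3.51 to 7.16 CPM, the lowest again in the shallow replicate 5 (-0.67 ± 0.40). Among NPC libraries of 2 genotypes a split was visible that genotype did not follow. Control replicates 2 and 5 and duplication-deletion replicate 5 had the 3 highest Pcdh18 levels (279, 220.0 and 329 CPM) and the 3 lowest Pcdh8 levels (6.67, 6.98 and 8.53 CPM). They also held 3 of the 4 highest Pcdh7 levels, 169.5, 108 and 167 CPM, with deletion replicate 3 at 115 CPM between them. The replicate numbers are those of the labels, and replicate 5 of the deletion did not share the pattern.

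**Figure D4:**
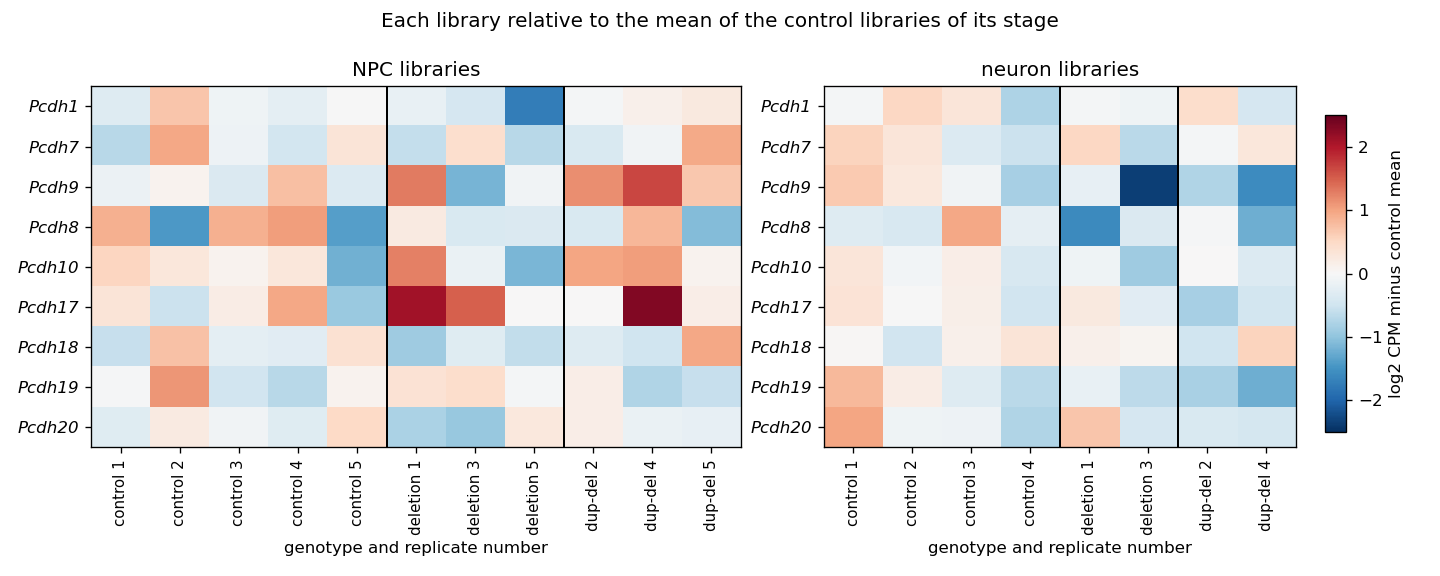
Log2 CPM of each gene in each NPC and neuron library minus the mean of the control libraries of the stage (red higher, blue lower, colour scale from -2.5 to 2.5). Among NPCs, control 2, control 5 and duplication-deletion 5 are red for Pcdh7 and Pcdh18 and blue for Pcdh8; among neurons, deletion 3 and duplication-deletion 4 are the bluest for Pcdh9.

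In neurons, Pcdh9 and Pcdh19 stood lower in duplication-deletion cells. Pcdh19 had 13.6 and 10.1 CPM there, both below the 4 controls (14.8 to 42.0 CPM), with a log2 fold change of -1.12 ± 0.43 (edgeR unadjusted p = 0.0283, adjusted p = 0.681). Deletion neurons had 20.9 and 15.1 CPM of Pcdh19, inside the control range.

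Pcdh9 had 93.1 and 53.0 CPM in duplication-deletion neurons and 136 and 30.8 CPM in deletion neurons, against 88.6 to 247 CPM in controls. In each mutant 1 library lay below the controls and 1 within their range. Duplication-deletion gave a log2 fold change of -1.21 ± 0.61 (edgeR unadjusted p = 0.0767, adjusted p = 0.698) and deletion one of -0.99 ± 0.60 (edgeR unadjusted p = 0.132, adjusted p = 1). The deletion value was -2.42 without deletion replicate 1 and -0.29 without deletion replicate 3. Astrocyte markers were lower in every mutant neuron library, with 91.7 and 110 CPM in duplication-deletion and 98.2 and 106 CPM in deletion neurons, than in controls (146.5 to 265 CPM). GABAergic markers summed to 25.8 and 58.7 CPM in duplication-deletion neurons, 74.2 and 81.7 CPM in deletion neurons and 52.5 to 278 CPM in controls, which overlap. Floor plate markers summed to 389 to 518 CPM in duplication-deletion neurons, above the controls (169 to 347 CPM). Dopaminergic markers were lower in deletion neurons (149.5 and 164 CPM) than in controls (237 to 474 CPM). So were serotonergic (4.26 and 31.2 against 35.8 to 138 CPM) and oligodendrocyte lineage markers (16.6 and 38.9 against 39.6 to 83.6 CPM). Glutamatergic markers were higher there (134.7 and 176 against 52.2 to 107 CPM). Duplication-deletion neurons overlapped the controls in all of these, but lay above them in mesoderm, endothelium and neural crest markers. The part of these markers in the Pcdh9 and Pcdh19 values was not tested.

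Pcdh17 had 27.2 and 35.3 CPM in duplication-deletion neurons, against 35.0 to 61.5 CPM in controls and 57.5 and 39.8 CPM in deletion neurons (log2 fold change over control -0.68 ± 0.31, edgeR unadjusted p = 0.0539, adjusted p = 0.694). The higher of the 2 duplication-deletion libraries overlapped the lowest control. Pcdh8 had 7.42 and 17.5 CPM in deletion and 22.1 and 9.59 CPM in duplication-deletion neurons, where controls had 17.0 to 44.0 CPM. For deletion its log2 fold change was -0.96 ± 0.56 (edgeR unadjusted p = 0.118), and it was -0.46 without deletion replicate 1 and -1.72 without deletion replicate 3. Pcdh10 had 94.1 and 54.2 CPM in deletion neurons and 101 and 80.1 CPM in duplication-deletion neurons, against 76.8 to 124 CPM.

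The other genes stayed within the control range or close to it. Pcdh7 had 127 and 55.8 CPM in deletion and 86.0 and 108 CPM in duplication-deletion neurons (61.4 to 131 CPM in controls). Pcdh18 had 67.9 and 65.0 CPM, and 44.3 and 92.4 CPM, in the same groups (44.9 to 78.1 CPM in controls). In duplication-deletion neurons the library with more Pcdh18 RNA, replicate 4, was also the one with more mesenchyme marker RNA (1328 against 683 CPM). Pcdh1 had 14.7 and 14.0 CPM in deletion and 20.5 and 11.3 CPM in duplication-deletion neurons, and Pcdh20 had 10.6 and 4.86 CPM and 5.00 and 4.84 CPM, all inside the control ranges.

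Whether a genotype effect differed between stages was tested directly in a joint fit of all 28 libraries, with no member called in any of the 6 contrasts by edgeR or DESeq2. The share of genes called was 0.00500% for the deletion effect in NPCs against ESCs, 0.00500% for that in neurons against NPCs, 0.00500% for the duplication-deletion effect in NPCs against ESCs, and 0% in the other 3, where edgeR had 569 to 1004 genes at an unadjusted p under 0.05 and DESeq2 called 18 to 34. Pcdh9 was higher than control in duplication-deletion NPCs and lower in duplication-deletion neurons, and the difference of these effects was -2.36 ± 0.78 on the log2 scale (edgeR unadjusted p = 0.00591, adjusted p = 0.962). Leaving out single libraries gave -2.82 to -2.01. Pcdh19 had a difference of -1.84 ± 0.68 between duplication-deletion neurons and ESCs (edgeR unadjusted p = 0.0118, adjusted p = 1). For Pcdh10 the deletion effect in neurons minus that in ESCs was -2.93 ± 1.37 (edgeR unadjusted p = 0.0430, adjusted p = 1), and 3.56 without ESC deletion replicate 2, the library with its 16 stray counts.

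The authors' deposited table gives the same comparisons of mutant with control. It lists 1 of the 9 genes in ESCs, 8 in NPCs and 9 in neurons, and in the authors' deposited table none of them has an adjusted p under 0.05. Among all genes listed in the authors' deposited table, the share under 0.05 was 0.0211% and 0.0361% in ESCs, 0.844% and 0.370% in NPCs and 0.279% and 1.15% in neurons, for deletion and duplication-deletion, so 0 members is near the background. For Pcdh9 the authors' deposited table gives a log2 fold change of 1.18 in duplication-deletion NPCs (p = 0.000584, adjusted p = 0.111) and of -1.21 in duplication-deletion neurons (p = 0.00492, adjusted p = 0.161). For Pcdh17 in deletion NPCs the authors' deposited table gives 1.30 (p = 0.0111, adjusted p = 0.432), and for Pcdh19 in duplication-deletion neurons -1.12 (p = 0.0127, adjusted p = 0.250). For Pcdh18 in deletion NPCs the authors' deposited table gives -0.67 (p = 0.0376, adjusted p = 0.801). For Pcdh17 in duplication-deletion neurons the authors' deposited table gives -0.68 (p = 0.0388, adjusted p = 0.387). The share of all listed genes at such unadjusted p-values was not computed. All these values have the sign found here, from the same libraries and so not independently. For Pcdh7 and Pcdh17 in deletion neurons the authors' deposited table gives 0.015 and 0.007, where -0.006 and -0.011 were found here.

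The genes through which delta protocadherins are known to act were followed as lists. Over all genes, 21.0% rose and 20.5% fell from ESC to NPC, and 23.2% rose and 20.5% fell from NPC to neuron; the lists are short, and each count below is a description beside these shares. Of the 11 WAVE complex genes 10 were tested. None rose and 2 fell from ESC to NPC (Wasf2, log2 fold change -1.46 ± 0.22, and Nckap1l, a blood cell form, -4.20 ± 1.22). From NPC to neuron Cyfip2 rose (1.90 ± 0.29) and Cyfip1 fell (-0.61 ± 0.20). The list's median was -0.03 and 0.23 at the 2 steps, close to 0.01 and 0.10 for all genes, where the delta-2 genes themselves rose manyfold at the first step.

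Of the 5 genes by which Pcdh8 acts on N-cadherin, 2 rose and 1 fell from ESC to NPC and 3 fell from NPC to neuron. Cdh2, which encodes N-cadherin, rose from 6.54 ± 5.22 CPM (SD, n = 3) in control ESCs to 429 ± 77.7 CPM (n = 5) in control NPCs, a log2 fold change of 6.01 ± 0.56, and fell to 187 ± 79.5 CPM (n = 4) in control neurons (-1.16 ± 0.39). Map2k6, a kinase upstream of p38, rose and then fell (0.98 ± 0.32 and -1.44 ± 0.29), Map2k3 fell at the first step (-1.24 ± 0.36) and Mapk14, p38 alpha, fell at the second (-1.08 ± 0.22). Taok2 had 41.7 ± 9.46, 53.5 ± 4.62 and 70.6 ± 16.4 CPM in the 3 control stages. In deletion cells, which lack 1 copy, Taok2 had 13.5 to 21.5 CPM in ESCs, 23.1 to 37.5 CPM in NPCs and 18.9 and 36.0 CPM in neurons, below every control library of the stage, yet its log2 fold changes of -1.26 ± 0.26, -0.91 ± 0.21 and -1.35 ± 0.36 did not pass edgeR's threshold (adjusted p = 1, adjusted p = 0.350 and adjusted p = 1). Pcdh8 and Cdh2 showed no such separation in deletion cells: Cdh2 had 329 to 590 CPM in deletion NPCs and 329 to 522 CPM in control NPCs.

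The list for protein phosphatase 1 and Set held Ppp1ca, Ppp1cb, Ppp1cc, Set and Taf1, the last not taken as a partner here. Of these 5 genes, 1 fell from ESC to NPC and 3 fell from NPC to neuron. The delta-1 genes Pcdh1 and Pcdh9 rose at that second step. Set fell at both (-1.17 ± 0.37 and -2.13 ± 0.37), and the catalytic subunits Ppp1cc and Ppp1ca fell by 1.51 and 1.33 on the log2 scale at the second. Among 13 classical cadherins and catenins, 8 rose and 4 fell from ESC to NPC and 4 rose and 6 fell from NPC to neuron. Cdh11 (8.96 ± 0.83) and the neural catenin Ctnna2 (6.76 ± 0.58) rose at the first step. At the second, Ctnnd2, a neuronal catenin, rose (2.92 ± 0.37), while Cdh1 (-5.55 ± 0.71) and Cdh3 (-4.03 ± 0.63) fell. Of 3 other single-gene protocadherins, Pcdh11x rose at both steps (5.72 ± 0.87 and 4.57 ± 0.50), as did Pcdh15 (3.60 ± 1.24 and 2.76 ± 0.89). No gene of these lists passed edgeR's threshold in a comparison of genotypes.

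For each member the genes most like it across all 28 libraries were named by Pearson correlation of log2 CPM, among 14665 genes with a mean of at least 1 CPM. These correlations follow the 3 stages, which all libraries share, and are descriptions. Pcdh7 was most like Irs1 (r = 0.987), Sgce (0.980) and Vtn (0.978), and Pcdh18 was most like Irs1 (0.975), Snx33 (0.975) and Pcdh7 (0.974), so these 2 protocadherins had a nearest gene in common. Pcdh9 was most like Akap6 (0.982), Nell2 (0.980) and Pfn2 (0.980), Pcdh10 was most like Fam155a (0.980), Tspyl4 (0.979) and Sema6d (0.979), and Pcdh17 was most like Plcxd3 (0.989), Trio (0.981) and Galntl4 (0.977). For Pcdh8 they were Fam168b (0.978), Pogk (0.973) and Zfp503 (0.973), for Pcdh19 2610203C20Rik (0.961), Cxadr (0.959) and Stau2 (0.958), and for Pcdh20 Frmd3 (0.964), Shc3 (0.964) and Cacna1e (0.963). Pcdh1, most like AK150559 (0.902), Tmem130 (0.899) and Ids (0.895), stood furthest from the other members: its nearest member was Pcdh10 at r = 0.677, at place 1651 in its order, whereas the other 8 each had a member within the first 158.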

How the data were processed

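Total RNA was read as paired ends of 75 bases from stranded libraries, per the labels. The authors deposited expected counts per gene and library, for which the submitters' processing notes name STAR 2.6.0c, RSEM 1.3.0 and the build mm9; these are neither scaled nor on a log scale. The authors' deposited table also holds log2 fold changes, their standard errors, a test score, p-values and adjusted p-values; DESeq2 1.22.2 is named in the same notes. Filters and strand use in counting are not given in the sources used here.

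Values were rounded to whole counts after 92 spike-in entries had been removed; 0 columns of other samples were present. Depth was 5578151 to 78814037 counts. Tests used edgeR 4.0.16 under R 4.3.3 (TMM scaling, filterByExpr by group, robust quasi-likelihood fits, two-sided), with Benjamini-Hochberg adjusted p-values over all genes of a comparison and a threshold of 0.05. Each stage was fitted with its 3 genotypes, the control stages apart, and differences of effects between stages over all 28 libraries. The SE of a log2 fold change is its size divided by the square root of the F statistic. Log2 CPM used a prior count of 2. Ratios with 1 to 3 counts have exact 95% binomial intervals, and a group at 0 counts a floor of 3 counts. The code was tested on simulated data. For NPC deletion against control it recovered 8 of 100 genes changed 2-fold and 73 of 100 changed 4-fold. For control NPCs against ESCs it recovered 12 and 77 of 100. Alternatives were DESeq2 1.42.0, other size factors, no count filter, a joint fit, the replicate block, and leaving out single replicates or the shallow libraries.

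Same-numbered ESC libraries deviated together (9 pairs, correlation of deviations from group means 0.178 to 0.590). The 18 other ESC pairs had -0.409 to 0.193, which overlaps slightly. The numbers were therefore taken to pair ESC samples, and the pairing comes from these data, not the labels. The main ESC tests had no replicate block, which was run as an alternative. No 2 libraries were identical. Named were all 9 members, Taok2, Cdh2, up to 3 called genes with the smallest p per list and the 3 genes most like each member; promoter motifs were picked after the sequences were seen. Members and lists were chosen with earlier results of these data known. The 6 Hi-C samples are not analysed here.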

Additional observations from a re-analysis of the deposited data

Results flagged for a closer look

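In 18 groups of 4 or 5 libraries (9 genes in control NPCs and control neurons), 2 held a library whose gap to its nearest neighbour took up more of the group's range than Dixon's 95% critical value allows; chance gives about 1 in 20. Pcdh8 in control neuron replicate 3 had 44.0 CPM, where the other 3 libraries had 17.0 to 19.1 CPM (gap 0.876 of the range). Pcdh10 in control NPC replicate 5, a shallow library, had 3.47 CPM, where the other 4 had 8.50 to 11.7 CPM (gap 0.738 of the range).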

How the results depend on the processing

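The number of members called kept within 1.5 times its reported value, and on its side of the threshold, under all 256 alternatives run over the 18 comparisons: DESeq2, other size factors, no filter on low counts, a joint fit, the replicate block, and leaving out the shallow libraries or each replicate in turn. With the replicate block 8, 7 and 9 members were called between control stages and 0 in each comparison of genotypes. The block thus changed no call of a member. The share of all genes called with the block is not given here, so these counts have no background beside them. In NPCs 5 of 7 and in neurons 3 of 4 same-numbered pairs had a correlation of deviations over 0.1, and 2 of 10 across control stages. Same-numbered NPC pairs ran from -0.023 to 0.433 and other NPC pairs from -0.342 to 0.196. Whether some NPC numbers mark a shared batch was not tested. Each mutant neuron group holds 2 libraries, whose deviations mirror each other, so the neuron pairs cannot decide it.

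Single gene values were all followed between control stages, but elsewhere only those with a smaller unadjusted edgeR p in the main fit. Many values near 0 were thus left out, such as that of Pcdh18 in duplication-deletion ESCs, which changed sign with the block. Of the values followed, 787 kept their direction and side of the threshold and 16 changed sign, none of them past the threshold. The cause was not tested. Leaving out single replicates gave log2 fold changes from -0.056 to 1.48 for Pcdh17 in duplication-deletion NPCs against control, from -0.20 to 0.69 for Pcdh1 in control NPCs against ESCs, and, in control neurons against NPCs, from -0.141 to 0.325 for Pcdh7 and from -0.38 to 0.29 for Pcdh8, which was -0.16 without the shallow libraries. The deletion effect on Pcdh10 minus that in ESCs ran from -3.37 to 4.24 in NPCs and from -4.04 to 3.56 in neurons. The duplication-deletion effect on Pcdh20 minus that in ESCs ran from -5.955 to 3.125 in NPCs and from -6.43 to 2.62 in neurons.

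In ESCs depth limits 5 of the 9 genes, which had 0 to 32 counts per library. With 2 to 5 libraries a group, some of them shallow, SEs of the members' genotype effects were 0.31 to 0.61 for the NPC and neuron values given with one.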
